A study of Homo sapiens with 6 samples.

Results

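The genes described here are the numbered zinc-finger genes of human chromosome 19, taken as every symbol of the deposited gene tables made of ZNF and a number, with or without 1 closing letter, that is placed on that chromosome. The rule uses the name and the chromosome and no measured value, and it gave 258 of the 28307 symbols in the tables. Of these, 246 are annotated as protein coding and 12 as transcribed pseudogenes by RefSeq. Another 276 genes with names of the same kind lie on other chromosomes, and 1534 other symbols lie on chromosome 19.

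Transcript levels were measured in SW480, an established human colon adenocarcinoma line. The cells were grown in DMEM with serum and carried 1 of 2 lentiviral constructs under antibiotic selection. The control group, labelled pLENTI CMV Clover, expressed the fluorescent protein Clover, and the other group, labelled pLENTI CMV Z18trunc, expressed a truncated form of ZC3H18, a protein of the nuclear RNA surveillance machinery that clears unwanted transcripts. Each group held 3 libraries, and the study describes the lines as made in triplicate. Both constructs use the strong viral CMV promoter, and the Z18trunc construct is present beside the ZC3H18 gene of the cells. Protein was not measured in these data.

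Most zinc-finger proteins encoded on chromosome 19 carry a KRAB domain next to a string of zinc fingers. The fingers bind DNA, often inside transposable elements (TEs), and the KRAB domain recruits TRIM28, which brings the histone methyltransferase SETDB1, HP1 proteins and deacetylases to the site. The genes lie in clusters that grew by repeated duplication, and many members recognise elements that entered the genome shortly before the member arose. The naming rule also takes in zinc-finger genes that have no KRAB domain.

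The libraries held 18226033 to 22463310 aligned fragments. ZC3H18 stood at 58.4, 51.3 and 61.8 TPM (transcripts scaled to 1000000 per library) in Clover and at 752, 739 and 798 TPM in Z18trunc. The change was 3.72 ± 0.091 (SE) on the log2(TPM + 1) scale, with an adjusted p of 3.21e-05 in limma over all genes tested, so the construct is seen in every library labelled with it. The epithelial markers EPCAM, KRT8, KRT18, KRT19, CDX2, VIL1 and CDH1 were at 10.1 TPM or more in all libraries, KRT20 was listed at 0 and LGALS4 reached 0.106 TPM. Of the fibroblast, leukocyte and endothelial markers none passed 1.94 TPM, HBB was listed at 0, and HBA1 lay between 23.2 and 27.2 TPM.

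Zinc-finger genes of chromosome 19 were mostly weakly expressed in these cells. Of the 258 genes, 38 were listed at 0 in all libraries, and another 65 had a mean below 1 TPM over the 6 libraries. The remaining 155 had a mean of at least 1 TPM and were tested. Their median level in the Clover libraries was 2.62 TPM, beside 14.2 TPM for all 13300 genes tested. A group of 23 members reached a mean of 10 TPM or more in the Clover libraries, led by ZNF787. The 12 pseudogenes contributed 2 tested genes, ZNF321P and ZNF818P.

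The 10 most abundant members supplied 50.8% of the summed TPM of the group in the Clover libraries. ZNF787 stood at 99.8, 106.1 and 99.2 TPM in Clover and at 93.8, 102.1 and 95.2 TPM in Z18trunc. ZNF428 stood at 90.2, 103.0 and 89.1 TPM against 93.1, 105.5 and 92.7 TPM, and ZNF580 at 78.2, 87.8 and 76.0 TPM against 78.0, 84.5 and 79.6 TPM. The values of the 2 groups interleaved for all 3 genes, and the fitted differences were -0.07 ± 0.072, 0.05 ± 0.093 and 0.0028 ± 0.083 (SE, log2 scale, n = 3 per group, limma). The signs for ZNF428 and ZNF580 turned under quantile normalization and with FPKM, a related unit scaled to fragments in place of transcripts.

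ZNF581, ZNF358, ZNF444, ZNF524 and ZNF574 made up most of the rest of this abundant set, with Clover means between 35.3 and 81.1 TPM and fitted differences between -0.14 and -0.03 (log2 scale), and their groups overlapped; the signs of ZNF358 and ZNF574 turned in at least 1 other setting. ZNF524 is known as a telomere-binding protein and ZNF444 carries a SCAN domain, a dimerisation module. ZNF579 differed from these in that its 3 Z18trunc values, at 30.1, 32.1 and 32.7 TPM, all lay below its 3 Clover values, at 34.4, 34.5 and 35.1 TPM, with a difference of -0.13 ± 0.068 (SE, log2 scale) and an adjusted p of 0.259 in limma. ZNF146, a short protein made almost entirely of zinc fingers, had the largest positive difference of the 10. It stood at 26.7, 23.1 and 26.7 TPM in Clover and at 29.5, 32.0 and 45.9 TPM in Z18trunc, a difference of 0.45 ± 0.17 (SE, log2 scale) with an adjusted p of 0.141 in limma. Without the highest library, Z18trunc replicate 3, the difference was 0.26.

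The comparison of Z18trunc with Clover asks whether genes of this repressor family change when truncated ZC3H18 is expressed. No member passed an adjusted p of 0.05 in limma. Across all genes the same fit called 2 of 13300 (0.015%), of which 1 was higher in Z18trunc (0.00752%), so calls were rare in the whole table. Of the 155 tested members, 56 (36.1%) were higher with an unadjusted p under 0.05, beside 25.6% of all genes, and 1 (0.645%) was lower, beside 2.9% of all genes. With quantile normalization 20 members (12.9%) were higher, beside 12.8% of all genes, and 7 were lower. The share of members also did not exceed that of all genes with a filter at a mean of 5 TPM (23.8% beside 27.6%), an intensity trend in the fit (23.2% beside 24.4%) or the GC trend described below removed, so the excess depends on the setting. Members with no overlap between groups and higher values in Z18trunc numbered 55 (35.5%), beside 30.1% of all genes, and those with lower values numbered 2 (1.29%), beside 6.73%. Only members that passed the level filter enter these counts.

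The fitted difference was positive for 136 of the 155 tested members, and its median was 0.23 (log2 scale), beside 0.11 for all genes tested. ZNF genes on other chromosomes had a median of 0.17 over 198 tested genes, of which 59 were higher and 3 lower by that unadjusted p. Other genes of chromosome 19 had a median of -0.04 over 795 tested genes, with 43 higher and 46 lower. The zinc-finger genes thus stood apart from their chromosome neighbours in these medians, and close to zinc-finger genes elsewhere in the genome. Neither difference was tested. The medians were not matched for transcript GC content, which is described below. With the GC trend removed, the member median was 0.02. In bulk libraries a change in the RNA per cell and a change in the number of cells that express a gene cannot be told apart.

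The difference was not spread evenly over expression levels. Among the 23 members at 10 TPM or more in Clover, 10 had a positive difference and the median was -0.03. Among the 132 tested members below 10 TPM, 126 had a positive difference and the median was 0.25. Over the 155 members the correlation of difference and level was -0.41, beside -0.20 over all genes tested. Both are given as descriptions, since genes share libraries and low genes carry more noise. The 2 level classes also differed in base composition. Median transcript GC content was 62.3% in the 23 members and 42.3% in the 132.

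The sums over members followed the same division. Over all 258 genes the summed TPM was 1214, 1218 and 1209 TPM in Clover and 1251, 1324 and 1349 TPM in Z18trunc. The 10 most abundant members together gave 598, 653 and 598 TPM against 586, 627 and 601 TPM, which overlap. The other 248 members gave 616, 565 and 611 TPM against 665, 697 and 748 TPM, so every Z18trunc library lay above every Clover library for this sum. The same held for the sum over all 258 genes. ZNF genes on other chromosomes also separated, with 2552, 2361 and 2544 TPM against 2641, 2711 and 2744 TPM. In FPKM the sum over all 258 genes was 585, 621 and 586 in Clover and 592, 618 and 632 in Z18trunc. These FPKM sums overlap between the groups.

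**Figure D1:**
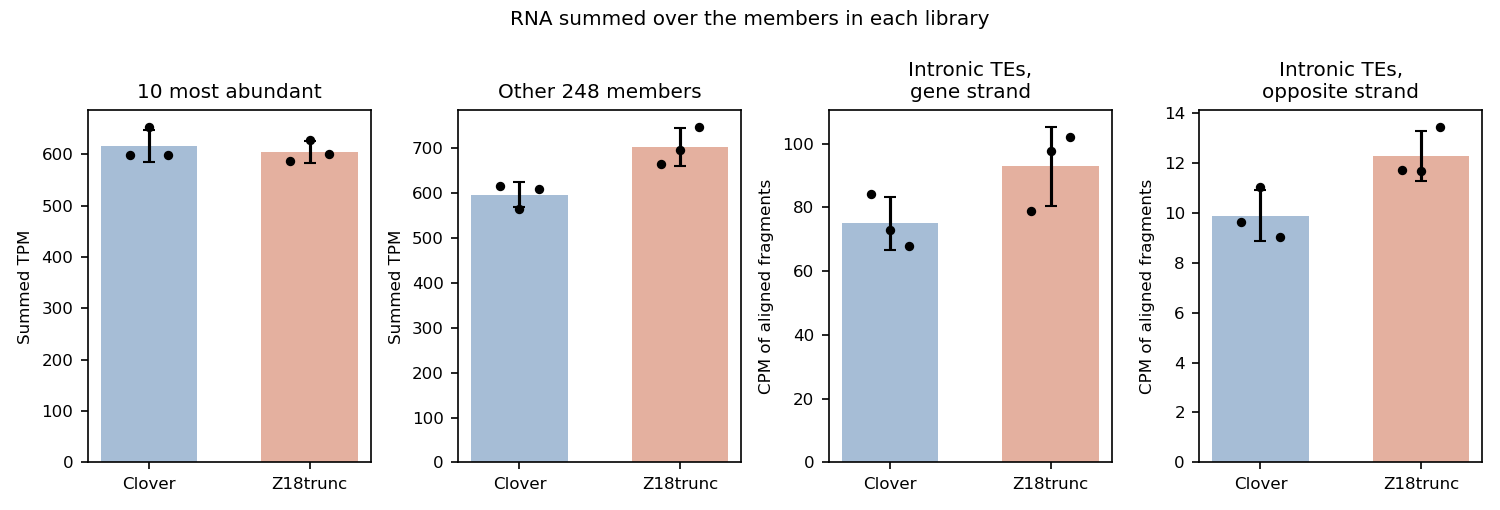
Sums over the chromosome 19 zinc-finger genes in each library; the left panels give summed TPM, the right panels CPM (counts scaled to 1000000 aligned fragments) of TE loci in member introns, bars are group means, error bars the SD of 3 libraries and points single libraries. The 10 most abundant members overlap between groups, the other 248 members do not, and the opposite-strand panel holds values from 9.02 to 13.4.

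The 8 members with the smallest p among those higher in Z18trunc were ZNF561, ZNF417, ZNF468, ZNF790, ZNF776, ZNF558, ZNF823 and ZNF614, with adjusted p-values between 0.0773 and 0.0812 in limma, which miss the threshold. ZNF561 (chr19:9607330-9621232, minus strand, hg38) stood at 3.28, 3.17 and 3.29 TPM in Clover and at 4.98, 4.74 and 5.92 TPM in Z18trunc. The difference was 0.54 ± 0.089 (SE, log2 scale). ZNF776 (chr19:57746815-57758148, plus strand) had the largest difference of the 8, with 4.10, 3.32 and 2.96 TPM against 5.86, 5.22 and 6.41 TPM and 0.62 ± 0.12 (SE, log2 scale). In both genes the lowest Z18trunc library lay above the highest Clover library, which also held for the other 6. Since the 8 were chosen by p, this separation follows largely from the choice.

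ZNF468 stood at 2.68, 2.53 and 2.78 TPM against 3.64, 3.78 and 4.02 TPM, and ZNF790 at 1.65, 1.53 and 1.58 TPM against 2.34, 2.21 and 2.40 TPM. These were among the tightest genes of the group, with SDs of 0.0591 to 0.188 TPM within a group. ZNF558, a KRAB zinc-finger gene, stood at 4.66, 4.46 and 4.49 TPM against 6.87, 5.83 and 6.25 TPM. It was the only member called, with an adjusted p of 0.0486, when genes with a mean of at least 5 TPM alone were tested, where 474 of all genes were called. ZNF823 had means of 1.21 TPM in Clover and 2.12 TPM in Z18trunc, and ZNF614 of 2.63 and 3.84 TPM.

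The 8 members with the smallest p among those lower in Z18trunc were ZNF414, ZNF579, ZNF780A, ZNF444, ZNF837, ZNF524, ZNF581 and ZNF818P. ZNF414 alone had an unadjusted p under 0.05, at 0.0451, with an adjusted p of 0.167 in limma. It stood at 15.8, 16.9 and 15.9 TPM in Clover and at 13.3, 13.7 and 15.2 TPM in Z18trunc, a difference of -0.19 ± 0.078 (SE, log2 scale). Apart from ZNF414 and ZNF579, the groups overlapped for every gene of this set. ZNF444, ZNF524, ZNF579 and ZNF581 are also among the 10 most abundant members, whereas none of the 8 higher genes passed 6.87 TPM in any library.

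**Figure D2:**
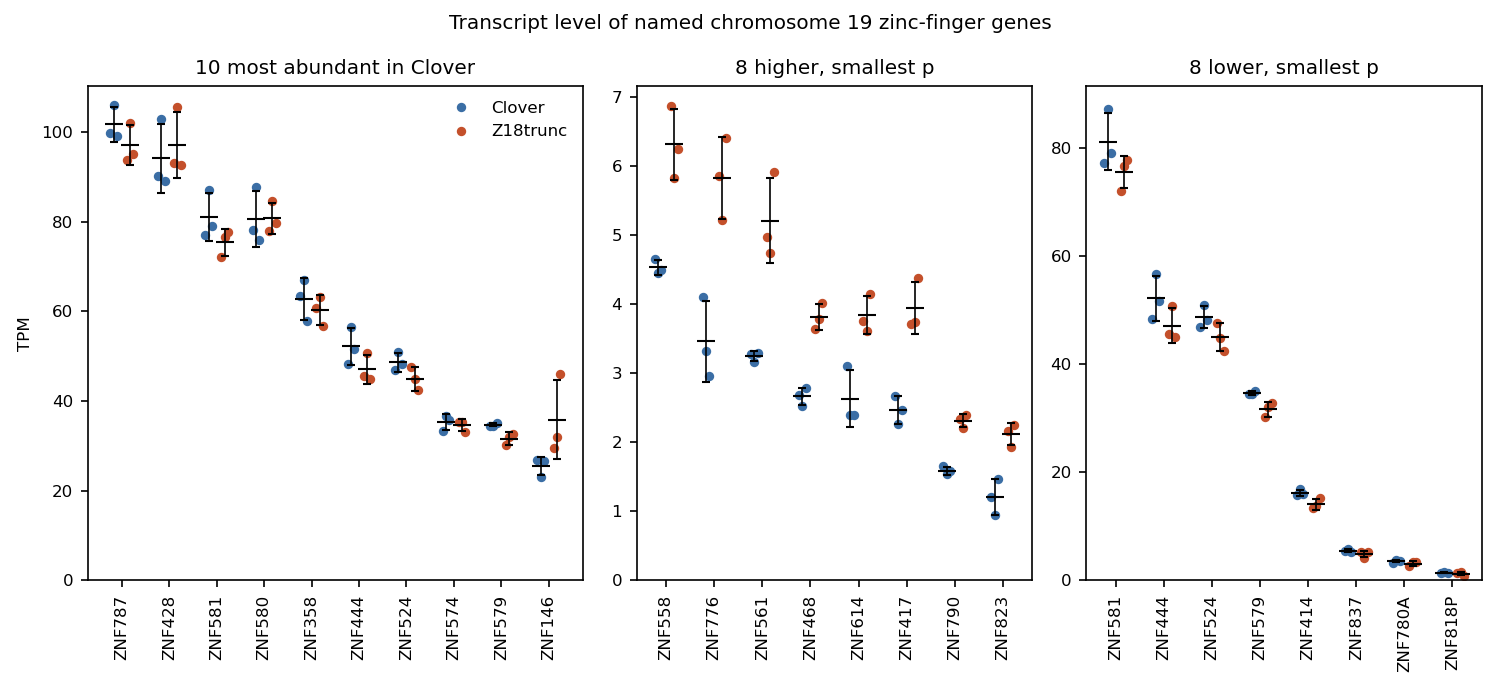
Transcript level in TPM (vertical axes, starting at 0) of the 10 members most abundant in Clover, the 8 higher and the 8 lower members with the smallest p; points are the 3 libraries of each group, black bars the mean and SD. The 8 higher members lie at levels up to 6.87 TPM. They were chosen by p, so their full separation between groups follows largely from that choice. The 10 abundant members were chosen by level, and most of them overlap.

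The largest fitted difference belonged to the pseudogene ZNF321P, which was picked out after its values were seen. It was listed at 2.64, 1.36 and 0 TPM in Clover and at 3.95, 3.64 and 3.85 TPM in Z18trunc, a difference of 1.23 (log2 scale) with an adjusted p of 0.124 in limma. A listed 0 in a table without counts can be a failed estimate, so its level in that library is uncertain. ZNF738, with 2.80, 0.247 and 2.44 TPM against 1.58, 4.36 and 4.40 TPM, came next in size and its groups overlapped.

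A second set of members was chosen because each is known to bind a named group of TEs. ZNF91 and ZNF611 bind SVA elements, ZNF93, ZNF649 and ZNF765 bind LINE-1 elements, ZNF417 and ZNF587 bind HERVK and its LTR5 repeats, ZNF808 binds MER11, ZNF433 and ZNF676 bind LTR12C, and ZNF534 binds HERVH. Of these 11 genes, 6 were tested, all 6 had a positive difference, 4 had an unadjusted p under 0.05, beside 25.6% of all genes, and none passed the adjusted threshold. The count of 4 became 1 with quantile normalization, an intensity trend or the GC trend removed, and 2 with FPKM. ZNF676 and ZNF534 were listed at 0 in all libraries. ZNF91 stood at 0.834, 0.503 and 1.01 TPM against 0.774, 1.17 and 1.43 TPM, ZNF93 did not pass 0.585 TPM and ZNF433 did not pass 0.678 TPM.

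The HERVK binder ZNF417 had the smallest p of this set. It stood at 2.67, 2.27 and 2.46 TPM in Clover and at 3.72, 3.74 and 4.38 TPM in Z18trunc, with a difference of 0.51 ± 0.086 (SE, log2 scale) and an adjusted p of 0.0773 in limma. ZNF587 stood at 8.53, 6.87 and 7.37 TPM against 8.78, 9.33 and 9.21 TPM, with a difference of 0.24 ± 0.090. The pair are recent copies of each other. Words of 100 bases shared with another gene made up 21.7% of the ZNF417 transcript and 14.7% of the ZNF587 transcript, so reads can be split between them and the value of each is uncertain. ZNF611 stood at 1.77, 1.35 and 1.45 TPM against 2.36, 1.82 and 2.30 TPM, also without overlap, with a difference of 0.32 ± 0.10 (SE, log2 scale). ZNF808 gave 0.24 ± 0.097 with overlapping groups, and ZNF649 and ZNF765 gave 0.13 ± 0.11 and 0.14 ± 0.22, with signs that turned under some other settings.

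RNA of the elements these proteins bind was summed over each subfamily on its own strand, as estimated counts scaled to 1000000 aligned fragments (CPM). HERVH-int stood at 473, 412 and 511 CPM in Clover and at 639, 737 and 657 CPM in Z18trunc, and LTR12C at 117, 117 and 114 CPM against 163, 183 and 175 CPM. L1PA elements with L1HS gave 715, 718 and 666 CPM against 764, 825 and 1073 CPM, a log2 ratio of 0.34 that was 0.18 without Z18trunc replicate 3, and LTR5_Hs gave 20.8, 19.9 and 20.5 CPM against 21.4, 23.4 and 22.0 CPM. These 4 sums did not overlap between groups. Each reached p = 0.1 in an exact two-sided permutation test, the smallest that 3 against 3 libraries allow. Adjusted over the 6 sums, this p was 0.15. The matching share over all TE subfamilies is not given. On the opposite strand HERVH-int, LTR12C, LTR5_Hs and SVA were also higher without overlap (log2 ratios 0.46, 0.27, 0.26 and 0.24), while L1PA and MER11 overlapped. Uniquely mapped gene-strand TE counts in introns of all other genes also rose without overlap, with a log2 ratio of 0.31. On their own strand, log2 ratios were 0.54 for HERVH-int, 0.58 for LTR12C and 0.13 for LTR5_Hs. SVA elements gave 269, 288 and 253 CPM against 247, 281 and 282 CPM, with an exact permutation p of 1, and MER11 gave 18.8, 20.0 and 18.6 CPM against 18.6, 20.6 and 19.5 CPM, with an exact permutation p of 0.6. Both overlapped.

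The genes through which KRAB zinc-finger proteins act were read from the same fit. All 19 of this list were tested, 16 had a positive difference, 5 (26.3%) had an unadjusted p under 0.05 and were higher, close to the 25.6% of all genes, and none was called; the median was 0.20 (log2 scale). TRIM28, the common partner of KRAB domains, stood at 586, 629 and 639 TPM in Clover and at 574, 621 and 549 TPM in Z18trunc, a difference of -0.09 ± 0.079 (SE, log2 scale). The HP1 genes CBX3 and CBX1 went from means of 165 to 220 TPM and of 44.1 to 53.9 TPM, and the deacetylase HDAC2 from 13.5 to 17.5 TPM. CHD4, the remodelling enzyme of the NuRD complex, went from 148 to 180 TPM, and ATF7IP, which stabilises SETDB1, from 10.2 to 13.9 TPM. The adjusted p-values of these 5 genes lay between 0.0823 and 0.126 in limma. SETDB1 itself stood at 11.5, 10.1 and 12.3 TPM against 14.7, 12.5 and 12.8 TPM.

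By position, the members fell into 16 clusters when neighbouring starts more than 1 Mb apart were separated. The largest, at the end of the long arm (chr19:55476617-58489533), held 60 members, of which 39 were tested, and gave more summed RNA than any other, at 587, 622 and 592 TPM in Clover and 585, 615 and 603 TPM in Z18trunc. It begins with GC-rich, abundant genes such as ZNF579, ZNF580, ZNF581 and ZNF787 and goes on to weakly expressed ones such as ZNF776 and ZNF417. Its median difference was 0.12, with 30 of 39 positive. The cluster from ZNF175 to ZNF331 (chr19:51571283-53580269) held 43 members, 30 of them tested, with a median difference of 0.20.

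The cluster from ZNF101 to ZNF254 (chr19:19668153-24129967), which holds ZNF91, ZNF93 and ZNF676, was the quietest of the large ones. It held 39 members with a median Clover level of 0.387 TPM, 13 of them listed at 0, and 12 were tested. All 12 had a positive difference, with a median of 0.17, and 1 had an unadjusted p under 0.05. Its transcripts had the lowest median GC content of the large clusters, at 37.0%. The clusters from ZNF653 to ZNF791, from ZNF565 to ZNF573 and from ZNF575 to ZNF296 each had 8 members higher with unadjusted p under 0.05. They held 15, 16 and 16 tested members, with median differences of 0.31, 0.31 and 0.28. Their median GC contents were 42.1%, 39.1% and 42.7%. By the same p, 25.6% of all genes were higher. Among genes outside the group the share was 52.8% up to a GC content of 42.6%, and 37.5% from there to 49.9%.

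**Figure D3:**
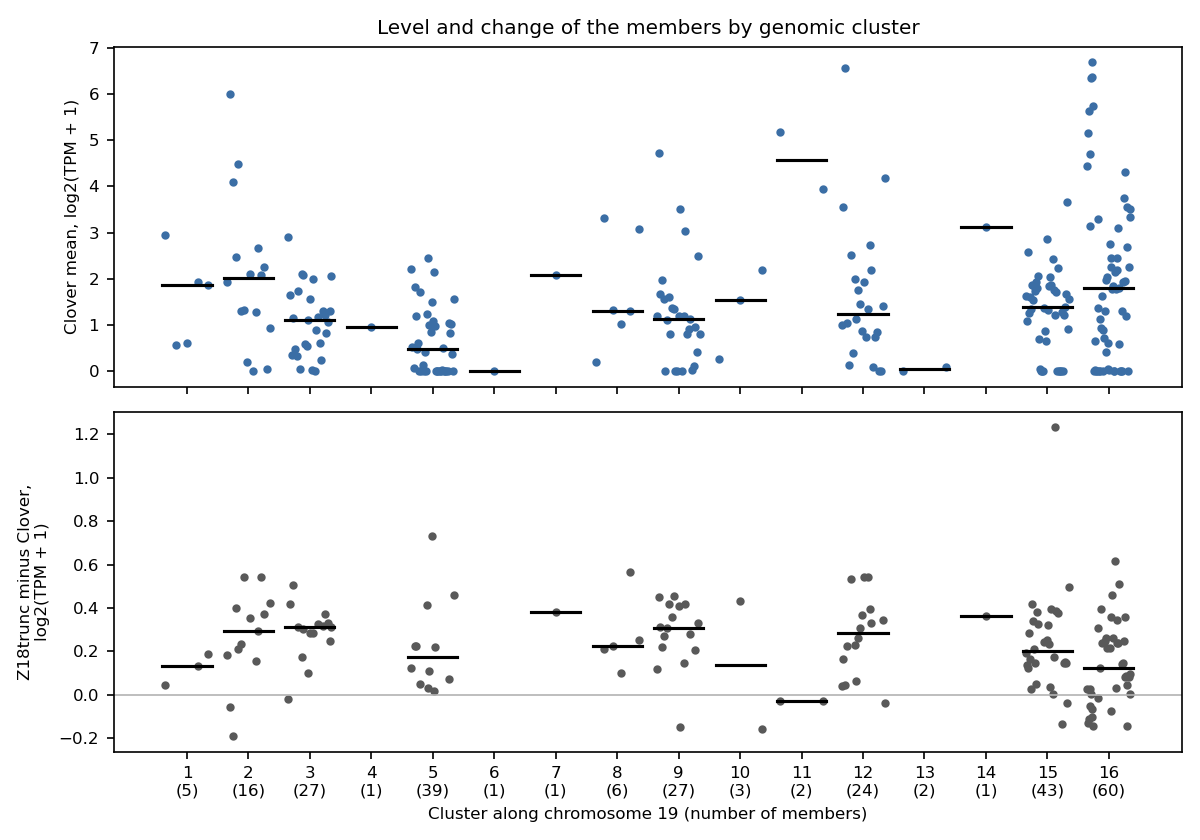
Members in chromosomal order, grouped into the 16 clusters, with the Clover mean on the log2(TPM + 1) scale above and the difference between groups on the same scale below; black lines are medians of a cluster, and only tested members appear below. Cluster 5 is the lowest of the large clusters in level, and differences below 0 gather in the first part of cluster 16.

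The members also differed in base composition. The GC content of the canonical GENCODE transcript had a median of 42.8% over the tested members, beside 49.9% over all tested genes with a value. Over the 155 members its correlation with the difference between groups was -0.52, and over 12820 tested genes it was -0.51; both are descriptions over genes that share the same libraries. All tested genes were split by GC content into 4 classes of like size. Of the tested members, 72 lay in the lowest class, up to 42.6%, where their median difference was 0.28, beside 0.30 for other genes of that class. Another 53 lay between 42.6% and 49.9%, with medians of 0.25 for members and 0.20 for other genes. The 10 members between 49.9% and 57.8% had a median of 0.11, beside 0.034 for other genes. In the class above 57.8% there were 20 members, with a median of -0.03, beside -0.04 for other genes.

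The medians of members and other genes lay closest together in the lowest and the highest class. When a smooth trend on GC content was taken off each library, a setting added after seeing the data, the median over members was 0.02, and 8 members (5.16%) were higher by unadjusted p, beside 8.08% of all genes, and 9 were lower. In that fit ZNF561 was at 0.29 ± 0.075 (SE, log2 scale), ZNF417 0.28 ± 0.063, ZNF776 0.35 ± 0.11 and ZNF823 0.24 ± 0.077, while the other 4 of the 8 higher members were at 0.11 (ZNF468), 0.066 (ZNF790), 0.15 (ZNF558) and 0.13 (ZNF614), with unadjusted p-values between 0.134 and 0.394 in limma. On the lower side ZNF780A stood at -0.44 ± 0.11. The lowest adjusted p among these 9 genes in limma was 0.229. What part transcript composition or the library preparation has in the difference between groups was not tested.

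**Figure D4:**
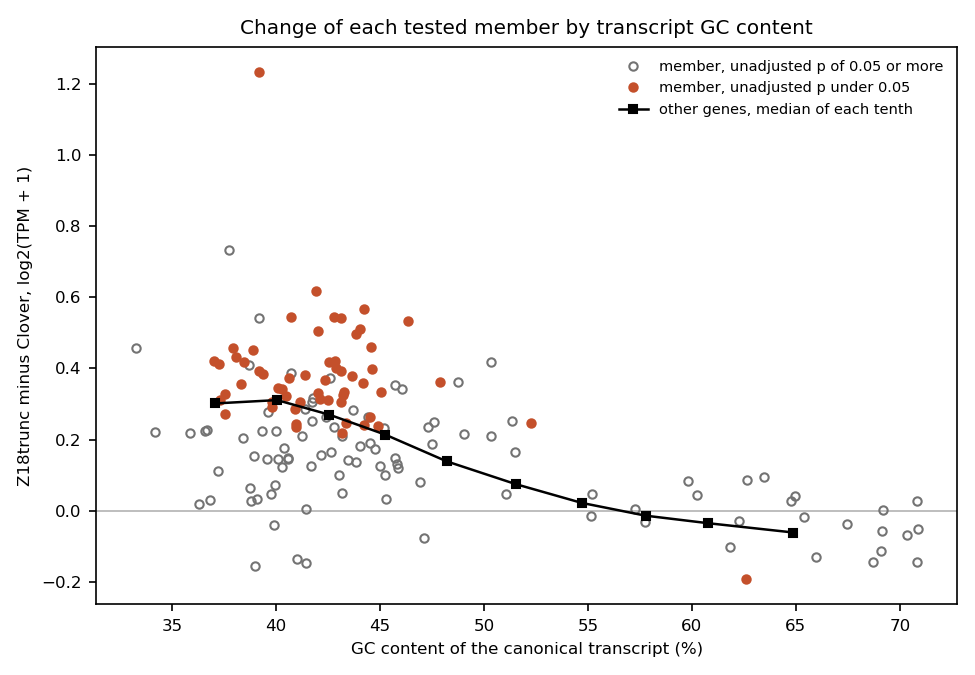
Difference between Z18trunc and Clover on the log2(TPM + 1) scale against the GC content of the canonical transcript for each tested member, with filled points for members at an unadjusted p under 0.05; black squares are the medians of the other genes in 10 bins of GC content. Members scatter around the medians of other genes, which run from about 0.30 at low GC content to -0.06 in the highest bin.

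The contrast can be seen in the coding sequence itself. The stretches below are 150 bases of the longest coding exon, chosen as the first whose GC content is nearest to that of the whole coding sequence, with G and C in capitals; they are shown because ZNF561 and ZNF468 are among the 8 higher members and ZNF787 and ZNF580 among the 4 most abundant ones. They come from GENCODE 44 transcripts on hg38, and lie in ZNF561 exon 6 (chr19:9611127-9611276, minus strand), ZNF468 exon 4 (chr19:52841973-52842122, minus strand), ZNF787 exon 3 (chr19:56088915-56089064, minus strand) and ZNF580 exon 2 (chr19:55642535-55642684, plus strand).
ZNF561: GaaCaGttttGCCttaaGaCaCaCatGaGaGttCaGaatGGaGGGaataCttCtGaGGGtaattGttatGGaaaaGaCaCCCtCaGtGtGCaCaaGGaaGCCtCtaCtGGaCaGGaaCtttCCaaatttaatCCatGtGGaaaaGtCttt
ZNF468: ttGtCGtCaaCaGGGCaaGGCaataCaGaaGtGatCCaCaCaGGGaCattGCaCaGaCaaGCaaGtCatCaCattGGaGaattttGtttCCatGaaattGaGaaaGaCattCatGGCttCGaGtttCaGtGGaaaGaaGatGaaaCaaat
ZNF787: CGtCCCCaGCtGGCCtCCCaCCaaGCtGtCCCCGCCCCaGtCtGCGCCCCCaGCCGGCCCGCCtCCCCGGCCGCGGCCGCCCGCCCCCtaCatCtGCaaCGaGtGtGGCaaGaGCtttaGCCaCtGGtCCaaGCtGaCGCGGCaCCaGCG
ZNF580: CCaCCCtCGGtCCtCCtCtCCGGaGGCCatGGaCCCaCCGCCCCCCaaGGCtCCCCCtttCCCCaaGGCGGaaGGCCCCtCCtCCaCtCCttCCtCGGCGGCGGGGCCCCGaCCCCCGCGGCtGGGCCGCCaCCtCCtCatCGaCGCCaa

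G and C made up 62 and 61 of the 150 bases in ZNF561 and ZNF468, and 110 and 112 in ZNF787 and ZNF580. Over the whole coding sequence GC content was 41.4% and 40.9% in the first pair and 73.4% and 74.8% in the second. ZNF428 and ZNF581 rank between ZNF787 and ZNF580 in abundance and are not shown. Their transcript GC contents were 60.2% and 61.8%, beside 70.4% for ZNF787 and 69.2% for ZNF580. The ZNF561 and ZNF468 genes have coding sequences of 1458 and 1566 bases, and ZNF787 and ZNF580 of 1146 and 516 bases.

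Sequence at the 5′ end of the members also differed from that over all genes with a promoter window. RefSeq windows from 250 bases before to 50 bases after the gene start were held for 216 of the 258 members and 27305 genes in all (GRCh38.p14), and each was searched on both strands. The word CCGGAAGT, the core that ETS factors bind, was found in 45 member windows (20.8%), beside 4.44% of all windows. A GC box (GGGCGG) was found in 67.6% of member windows and 44.6% of all windows, and a CCAAT box (CCAAT) in 53.7% and 35.7%. A TATA box (TATAAA) was found in 4 member windows (1.85%), beside 11.95% of all windows. The E-box CACGTG was found in 4.17% and 7.43%, and an NRF1 site in 12.5% and 6.28%. Matches of different words were counted separately even where they overlap. A match is not a bound site, and the shares were not tested. The windows of all genes include those of the members and were not limited to protein-coding genes. ZNF genes on other chromosomes and other genes of chromosome 19 were not compared in this way.

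The 2 promoters below are shown because both hold the ETS word, in capitals, and belong to 1 of the 8 higher members and to the most abundant member. Each gives the 250 bases before the gene start on the strand of the gene. The ZNF776 window (chr19:57746565-57746814, plus strand) holds the word on the reverse strand, beginning at base 232 of the 250 shown. The ZNF787 window (chr19:56121296-56121545, minus strand) holds it on the strand of the gene, beginning at base 86.
ZNF776: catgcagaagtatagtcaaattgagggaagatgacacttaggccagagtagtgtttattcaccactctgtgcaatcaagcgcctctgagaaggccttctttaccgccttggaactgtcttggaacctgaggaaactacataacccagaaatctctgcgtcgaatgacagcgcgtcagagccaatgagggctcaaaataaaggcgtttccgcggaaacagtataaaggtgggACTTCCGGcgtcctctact
ZNF787: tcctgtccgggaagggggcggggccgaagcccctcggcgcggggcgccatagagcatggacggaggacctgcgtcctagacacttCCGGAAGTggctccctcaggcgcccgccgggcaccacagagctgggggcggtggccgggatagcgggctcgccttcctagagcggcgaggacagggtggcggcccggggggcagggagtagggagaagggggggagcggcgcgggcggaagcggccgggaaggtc

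The ZNF776 stretch held 11 CG dinucleotides and the ZNF787 stretch 27. Over the whole 300-base windows the median number was 20 for members and 14 for all genes, with median GC contents of 59.8% and 58.3%. Among members with a window, the ETS word was found in 15 of the 49 that were higher at an unadjusted p under 0.05, in 17 of the 86 other tested members and in 13 of the 81 that were not tested. Shares for GC box, CCAAT box and NRF1 site were 63.3%, 46.9% and 8.16% of the 49, beside 70.9%, 51.2% and 12.8% of the 86. Those for TATA box and E-box were 2.04% and 8.16%, beside 1.16% and 4.65%. None of these splits was tested.

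Separate counts from within the same genes came from the TE tables. TE loci wholly inside 1 gene, on its strand and clear of exons were summed per gene from uniquely mapped counts. Such fragments can come from unspliced or intronic RNA of the gene or from transcripts that start in the element, which cannot be told apart here. The deposited tables listed 3290 such loci in members, 2829 of them with unique counts, of which SINE loci gave 43.5% of the counts, LINE loci 26.9% and LTR loci 25.6%. The locus with the most counts was an L1PA4 element in ZNF780B (chr19:40037916-40044054), with 49, 26 and 25 counts in Clover and 45, 32 and 34 in Z18trunc. Over members the sum was 84.1, 72.9 and 67.8 CPM in Clover and 78.8, 97.6 and 102 CPM in Z18trunc, so the groups overlapped.

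Of the 191 members with such counts, 89 had at least 30 over the 6 libraries and were tested with edgeR's quasi-likelihood test. None was called at an adjusted p under 0.05, where 11 of 7814 genes (0.141%) were called, each of them with more counts in Z18trunc. DESeq2 called none of the members either. By unadjusted p under 0.05, 8 members (8.99%) were higher, beside 13.8% of all genes, and 0 were lower, beside 0.269%. The median difference was 0.27 (log2 scale) for members and 0.31 for all genes, and that for members turned to -0.05 with TMM scaling and -0.06 with the size factors of DESeq2, which centre all genes near 0. The split of 8 higher and 0 lower then became 2 and 1, and 0 and 1. The share of members higher on this measure was below that of all genes with all libraries, and marginally above it without Clover replicate 1 (15.8% beside 15.5%) or without Z18trunc replicate 1 (15.6% beside 15.1%).

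The members with the smallest p in each direction rested on few counts. ZNF274, a zinc-finger gene whose protein binds the 3′ ends of other zinc-finger genes and recruits SETDB1, had 10, 11 and 9 counts in Clover and 21, 21 and 23 in Z18trunc, a difference of 1.10 ± 0.43 (SE, log2 scale) with an adjusted p of 0.234 in edgeR. Its transcript stood at 12.8, 12.1 and 12.3 TPM against 14.1, 15.2 and 15.4 TPM, a difference of 0.25 ± 0.071 with an adjusted p of 0.0933 in limma. Both measures of ZNF274 thus lay higher in every Z18trunc library. For the counts this follows largely from its choice by p, and in TPM 30.1% of all genes separated in that direction. ZNF30 had 10, 5 and 2 counts against 17, 10 and 19, with TPM of 1.58, 1.27 and 1.53 against 1.91, 2.46 and 3.77, and ZNF112 had 3, 3 and 1 against 6, 14 and 8. On the lower side ZNF284 had 7, 7 and 19 counts against 7, 3 and 6, ZNF567 had 11, 7 and 8 against 3, 2 and 9, and ZNF430 had 10, 13 and 4 against 3, 6 and 7. These 3 genes had positive differences in TPM, of 0.37, 0.42 and 0.41, so the measures pointed in opposite directions, with counts too low to separate them from 0.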

How the data were processed

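Polyadenylated RNA of 6 SW480 samples was prepared as stranded libraries, trimmed with cutadapt 4.6 per the submitters' processing notes, mapped to hg38 and run through SQuIRE by the authors. The deposited gene tables give TPM and FPKM values made by the authors, with no counts, so the depth behind a level is unknown. TPM was summed by symbol. The deposited TE tables hold uniquely mapped whole-number counts, not normalized, and estimated counts in which the authors shared multiply mapped fragments among loci. CPM divides by aligned fragments and multiplies by 1000000. A count of 0 allows up to 3 counts, for counting error only, since no molecular identifiers were used.

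Groups came from the sample titles. For all genes with a mean of at least 1 TPM, limma 3.58.1 in R 4.3.3 compared the groups on the log2(TPM + 1) scale, which understates the change of low genes, with Benjamini-Hochberg adjustment over the genes in the fit. Intronic TE counts were tested with edgeR 4.0.16 on aligned fragments as library size, for genes with at least 30 counts, with DESeq2 1.42.0 as an alternative. Loci were placed with bedtools 2.31.1. The fits were tested on simulated data. Subfamily sums were compared with exact permutation tests in scipy 1.17.1. GC content came from GENCODE 44, with a value for 96.4% of tested genes. P-values measure the spread between samples described as triplicate lines.

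The genes, the lists and the tests were chosen with earlier results of these data known. Members named are the 10 most abundant in Clover, the 8 with the smallest p in each direction, the TE-binding list, and the 3 with the smallest p in each direction for intronic counts, with exceptions stated in the text. Alternatives were other pseudocounts, filters, scalings, units, a replicate block and leaving out each library. Protein features were not analysed here.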

Additional observations from a re-analysis of the deposited data

Results flagged for a closer look

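TE loci inside member introns on the strand opposite to the gene were not tested between groups as a sum. Their summed unique counts were 9.62, 11.03 and 9.02 CPM in the Clover libraries, with a mean of 9.89 ± 1.03 (SD, n = 3), and 11.7, 11.7 and 13.4 CPM in the Z18trunc libraries, with a mean of 12.3 ± 1.0 (SD, n = 3). Every Z18trunc library lay above every Clover library, which is why the value is listed here. It rests on 177 to 282 fragments per library. The same sum over all other genes went from 1337 to 1571 CPM, a log2 ratio of 0.23 beside 0.31 for members. Where genes overlap on opposite strands, a fragment counted here can also be a gene-strand fragment of the other gene. ZNF146 (plus strand, chr19:36215106-36238768), for example, lies inside the span of ZNF565 (minus strand, chr19:36182060-36245928). The sum is therefore not fully separate from the gene-strand sum. Whether these fragments are RNA of an overlapping gene, antisense transcripts, transcripts of the elements or strand errors of the library was not tested.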

How the results depend on the processing

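Settings fixed for the fits were changed 1 at a time. The median difference over members was positive in all of them. It was 0.046 over the 42 members with a mean of at least 5 TPM, 0.16 with no filter, 0.075 with quantile normalization, 0.14 with FPKM and 0.023 with the GC trend removed. Quantile normalization moved the median of all genes by -0.11 and the GC trend by -0.11, and relative to all genes the member median was then 0.08 and 0.02, beside 0.13 as reported. At 5 TPM it lay 0.04 below that of all genes. Members higher at an unadjusted p under 0.05 numbered 10, 20, 37, 36 and 8 with the 5 TPM filter, quantile normalization, FPKM, an intensity trend and the GC trend removed. Their shares were 23.8%, 12.9%, 23.9%, 23.2% and 5.16%, beside 27.6%, 12.8%, 20.1%, 24.4% and 8.08% of all genes. Members without overlap numbered 13 and 23 with the 5 TPM filter and the GC trend removed, of 42 and 155 tested. The matching shares of all genes are not given. Members called were 1 of 42 with the 5 TPM filter, beside 474 of 9973 genes. TE-binding members higher at that p numbered 2 with FPKM and 1 with the 5 TPM filter, quantile normalization, an intensity trend or the GC trend removed, and silencing genes numbered 1 with the latter. The ratio of summed TPM was 0.11 (log2), 0.040 with FPKM and 0.24 without the 10 most abundant members. For intronic counts, members higher numbered 2 with TMM, 4 scaled to opposite-strand counts, 0 and 5 with DESeq2 on its own and on aligned-fragment factors, 2 with at least 100 counts and 21 with exonic loci included, where 1 was called; the median turned to -0.054 and -0.059 with TMM and DESeq2 factors. MER11 turned to -0.026 (log2 ratio) on the opposite strand. A gap of 2 Mb gave 9 clusters. Causes of these changes were not tested.

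Same-numbered samples of the groups correlated at -0.036, 0.017 and -0.037 in their deviations, so the numbers do not pair them. A replicate block gave 50 members higher by limma, 5 for intronic counts and 2 among TE-binding members, with no call.

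Leaving out each library in turn gave members higher from 34 to 59, the lowest without Clover replicate 2 and 36 without Z18trunc replicate 3. Their shares ran from 21.9% to 38.1%, beside 17.8% to 26.1% of all genes. Median differences ran from 0.18 to 0.28. Members without overlap ran from 63 to 84. With a library left out, groups separate more easily by chance, so these counts cannot be set against those from all libraries. The matching shares of all genes are not given. The summed TPM ratio ran from 0.09 to 0.14. Intronic members higher ran from 3 to 12, with 3 without Clover replicate 3 or Z18trunc replicate 2, and TE-binding members higher from 1 to 4. The shares of intronic members ran from 3.70% to 15.8%, beside 9.02% to 15.5% of all genes. SVA ran from -0.043 to 0.062 and MER11 from -0.0031 to 0.070 in log2 ratio.

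Of 32 named members tested, 25 kept their sign throughout and 7 turned at least once. With quantile normalization ZNF428 was at -0.0014, ZNF580 at -0.052 and ZNF649 at -0.069, and with FPKM ZNF428 was at -0.021 and ZNF580 at -0.063. With the GC trend removed ZNF358 was at 0.0038, ZNF574 at 0.012, ZNF649 at -0.14, ZNF765 at -0.14 and ZNF808 at -0.033. Leave-one-out values ran from -0.038 to 0.065 for ZNF580, -0.066 to 0.0028 for ZNF574, -0.048 to 0.31 for ZNF765 and -0.015 to 0.11 for ZNF428. TPM carries no depth, so no limit of detection can be given for members listed at 0.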
